A study of Caenorhabditis elegans with 12 samples.

Results

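The hypoxia and hydrogen sulfide response of Caenorhabditis elegans was followed through 8 genes, cysl-1, cysl-2, cysl-3, rhy-1, egl-9, nhr-57, sqrd-1 and F22B5.4, chosen by name from the 46891 named rows of the count table. The libraries held polyadenylated RNA from whole worms with the wild-type N2 background, 3 after RNA interference (RNAi) against y54g2a.18 and 3 after a control RNAi. y54g2a.18 is the worm homologue of BCAP31, a membrane protein of the endoplasmic reticulum, and the series asked how its loss bears on ageing. The 6 other libraries of the series, from RNAi of rpoa-49 and its own control, are not used here. The labels give no age or stage of the worms and do not say what the control RNAi was aimed at, and no other allele or agent is named for either group. RefSeq places cysl-2 (K10H10.2), rhy-1 (W07A12.7) and F22B5.4 on chromosome II, cysl-3 (R08E5.2), egl-9 (F22E12.4) and nhr-57 (T05B4.2) on V, sqrd-1 (F02H6.5) on IV and cysl-1 (C17G1.7) on X. All 8 genes had a row in the table. 6 of them had enough counts to be tested, egl-9 was listed at 0 in every library, and sqrd-1 held a single count in all.

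In worms, low oxygen and hydrogen sulfide are both read by the transcription factor HIF-1. Under normal oxygen the prolyl hydroxylase EGL-9 marks HIF-1 for VHL-1, which directs its destruction, and RHY-1, a transmembrane protein resembling acyltransferases, holds the pathway down as well. CYSL-1, a protein of the cysteine synthase family, binds and inhibits EGL-9 when sulfide builds up. Active HIF-1 then raises a set of targets, among them cysl-2, which encodes a cyanoalanine synthase that handles sulfide and cyanide, sqrd-1, which encodes the sulfide:quinone oxidoreductase of mitochondria, nhr-57, F22B5.4 and, as feedback, rhy-1 and egl-9. Much of this control acts on the HIF-1 protein and is not seen at the level of transcripts.

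After y54g2a.18 RNAi the measured members did not move as one block. Levels are given in CPM, counts divided by library size after scaling by trimmed means (TMM), and compared within a gene only. cysl-2 rose about 2.09-fold, F22B5.4 fell to 0.38 of its control level, and neither rhy-1, nhr-57, cysl-1 nor cysl-3 passed the test across all genes. cysl-2 and F22B5.4, both described above as HIF-1 targets, thus went opposite ways in the same libraries. In edgeR's quasi-likelihood test 1 of the 6 tested members was higher and 1 lower at an adjusted p of 0.05, against 3.97% of all 14290 tested genes called higher, 5.01% called lower and 8.98% called in either direction. With only 6 members tested, a count of 2 calls is a description. The groups did not overlap for 4 of the 6 members and for 30.4% of all tested genes. The same 4 members had an unadjusted p under 0.05 in edgeR, as did 23.3% of all tested genes. Because the members were chosen with earlier results of these data known, none of these counts can be read against all genes. The median log2 fold change of the tested members was -0.05, and that of all tested genes was 0.02.

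The check of the knockdown came first. Y54G2A.18 stood at 190, 128 and 90.2 CPM after its RNAi, against 391, 358 and 409 CPM in the controls. Its log2 fold change was -1.51 (adjusted p = 0.0073 in edgeR), and all 3 RNAi libraries lay below all 3 controls. The annotation of WBcel235 places dib-1, on the other strand, over 9.95% of the exonic bases of Y54G2A.18. With no strand setting named, reads in that stretch cannot be assigned to one gene. Libraries held 30096438 to 38306576 counts after RNAi and 34555880 to 39482828 in the controls. Ribosomal RNA made up 0.0937 to 2.02% of the RNAi counts and 0.214 to 1.64% of the control counts. The labels do not tie the replicates to separate cultures, so p-values here reflect the spread between these 6 libraries, which may be technical.

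Upstream in the pathway, the groups overlapped for cysl-1. Its 3 RNAi libraries held 73.8, 89.0 and 68.7 CPM, and the controls held 76.8, 73.8 and 80.2 CPM. The RNAi values reached both above and below the control values. The means were 77.2 ± 10.6 CPM after RNAi and 76.9 ± 3.21 CPM in the controls (SD, n = 3 each). The log2 fold change was 0.00 with an approximate 95% interval from -0.32 to 0.33 (adjusted p = 0.99 in edgeR), and any change inside that interval is within the error.

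rhy-1, the other upstream regulator with counts, was higher in every RNAi library but did not pass the test. It stood at 11.9, 11.4 and 7.97 CPM after RNAi, against 6.82, 7.82 and 6.18 CPM in the controls. RNAi replicate 3 lay only just above control replicate 2, and the other RNAi libraries lay well clear of the controls. On the log2 scale the fold change was 0.59 (SE 0.21), and its interval ran from 0.10 to 1.07. Its unadjusted p was 0.023 and its adjusted p 0.14 in edgeR. As both a brake on HIF-1 and one of its targets, rhy-1 belongs to either end of the pathway.

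egl-9, the HIF-1 prolyl hydroxylase, could not be measured. It was listed at 0 in all 6 libraries, as was hif-1 itself, while 3 counts would have come to 0.0748 to 0.0934 CPM depending on the library. RefSeq lists 5 transcripts for egl-9 and 6 for sqrd-1, but 1 for each of the 6 tested members; Ensembl lists 2 for F22B5.4, with 8.84% of its exonic bases in only one of them. In this table zeros went with the number of transcripts of a gene. Of the protein-coding genes with 1 RefSeq transcript, 1027 of 14871 (6.91%) had no count in any library, against 350 of 482 (72.6%) of those with at least 5. Since these include genes that every worm uses, daf-16 and daf-2 among them in this table, the zeros of egl-9 and hif-1 are no measure of their expression. The rule by which reads shared between transcripts were counted is not stated, and its part in these zeros was not tested.

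**Figure D1:**
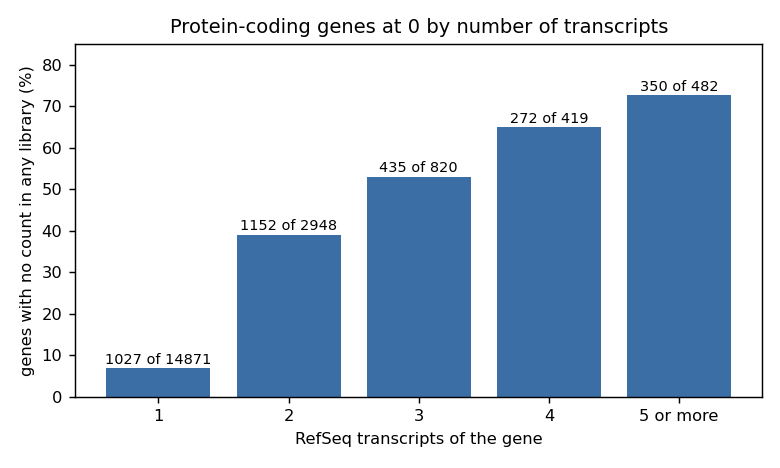
Share of protein-coding genes without a count in any of the 6 libraries (vertical axis, %) by the number of RefSeq transcripts of the gene (horizontal axis), with the number of genes above each bar. The share climbs from 6.91% of genes with 1 transcript to 72.6% of genes with 5 or more.

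Among the targets, cysl-2 was the member that rose. Its counts came to 96.2, 99.1 and 75.9 CPM after RNAi, against 44.7, 38.6 and 46.8 CPM in the controls. The lowest RNAi library, replicate 3, was still far above the highest control. The means were 90.4 ± 12.6 CPM after RNAi and 43.3 ± 4.27 CPM in the controls (SD, n = 3 each). On the log2 scale the fold change was 1.06 (SE 0.16), with an interval from 0.70 to 1.42 (adjusted p = 0.0042 in edgeR). That placed cysl-2 at rank 583 of the 14290 tested genes, counted from the strongest rise.

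The sulfide:quinone oxidoreductase gene sqrd-1, which takes the first step of sulfide breakdown in mitochondria, gave no usable value. RNAi replicate 3 held 1 count and the other 5 libraries none, so no fold is given. Ensembl's annotation of the assembly WBcel235 lists 6 transcripts for it, and 3.79% of its exonic bases belong to only one of them. The next enzyme of that route with counts, ethe-1, a mitochondrial sulfur dioxygenase, stood at 25.4, 21.5 and 22.3 CPM after RNAi, against 24.9, 22.3 and 25.3 CPM in the controls. Its groups overlapped, with a log2 fold change of -0.07 (interval -0.43 to 0.30, adjusted p = 0.85 in edgeR).

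nhr-57, a nuclear hormone receptor gene much used as a reporter of HIF-1, was lower in every RNAi library without passing the test. It had 19.9, 29.0 and 20.1 CPM after RNAi, against 33.6, 31.4 and 33.4 CPM in the controls. RNAi replicate 2 came close to the lowest control, and replicates 1 and 3 lay well under it. On the log2 scale the fold change was -0.51 (SE 0.19), with an interval from -0.95 to -0.08. The unadjusted p was 0.026 and the adjusted p 0.15 in edgeR, and without RNAi replicate 2 the log2 fold change was -0.72 (adjusted p = 0.023), past the threshold.

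F22B5.4, a hypoxia-induced gene used like nhr-57 to read HIF-1 activity, fell. It stood at 32.9, 39.0 and 21.8 CPM after RNAi, against 78.9, 83.2 and 86.5 CPM in the controls. Every RNAi library held less than each control library, and replicate 3 was the lowest. The means were 31.2 ± 8.74 CPM after RNAi and 82.8 ± 3.83 CPM in the controls (SD, n = 3 each), a 2.65-fold lower level. On the log2 scale the fold change was -1.41 (SE 0.21), with an interval from -1.89 to -0.92 (adjusted p = 0.0046 in edgeR). It ranked 500 of 14290, counted from the strongest fall. RefSeq lists 1 transcript for F22B5.4 but Ensembl 2, with 8.84% of its exonic bases in only one of them. The annotation used for counting is not named, so its counts may miss reads shared between transcripts, which was not tested.

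cysl-3, a paralogue of cysl-1 and cysl-2 in the cysteine synthase family, overlapped between the groups. Its libraries held 76.4, 58.6 and 52.6 CPM after RNAi and 65.0, 60.3 and 77.0 CPM in the controls. The RNAi group held the lowest values and the controls the highest one. The log2 fold change was -0.11 with an interval from -0.52 to 0.30 (adjusted p = 0.77 in edgeR). The cysl genes are related in sequence, and the labels do not say how a read that fits several of them was counted. The groups overlapped as well for the remaining gene of the family, cysl-4, which stood at 2.92, 2.23 and 2.24 CPM after RNAi and 2.57, 2.69 and 2.46 CPM in the controls.

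**Figure D2:**
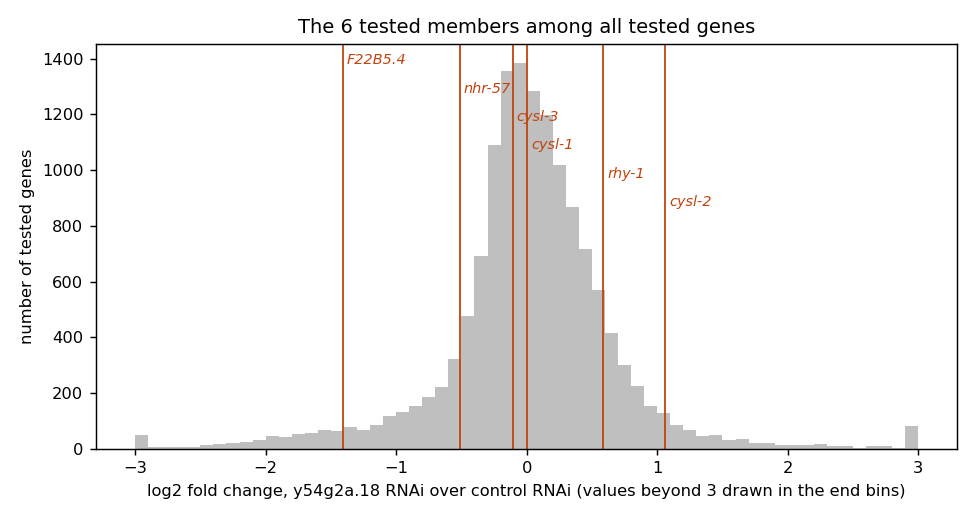
Histogram of the log2 fold change of all 14290 tested genes (grey; horizontal axis y54g2a.18 RNAi over control RNAi, vertical axis number of genes) with the 6 tested members as red lines. cysl-1 and cysl-3 sit near the centre, rhy-1 and nhr-57 on the flanks, and cysl-2 at 1.06 and F22B5.4 at -1.41 in the tails.

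Quotients of counts within a library, in which the scaling between libraries cancels, show how unequally cysl-2 and F22B5.4 changed. The count of cysl-2 divided by that of F22B5.4 was 2.93, 2.54 and 3.48 in the RNAi libraries, against 0.567, 0.464 and 0.540 in the controls. This quotient was 5.70 times as high after RNAi as in the controls. The pair was chosen after its values were seen, so a shift of the quotient follows from the choice, and the quotient does not tell which partner moved.

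Within the RNAi group replicate 3 was the lowest library for cysl-1, cysl-2, cysl-3, rhy-1 and F22B5.4, while nhr-57 was about equally low in replicates 1 and 3. The coefficient of variation of the tested members was 13.7 to 28.0% after RNAi and 3.66 to 12.8% in the controls. Over the 6 libraries the log2 CPM of nhr-57 and F22B5.4 correlated at r = 0.91 and that of cysl-2 and rhy-1 at r = 0.85, while cysl-2 and F22B5.4 stood at r = -0.84. These values are descriptions over libraries that share the group difference. Across 7006 other genes with a mean of at least 10 CPM, the patterns most like that of cysl-2 by Pearson's r belonged to C16A3.6 (0.998), Y43B11AR.3 (0.996) and F44G4.1 (0.995). C16A3.6 stood at 489, 507 and 422 CPM after RNAi and 301, 288 and 317 CPM in the controls. The log2 fold changes were 0.64 for C16A3.6, 0.23 for Y43B11AR.3 and 0.30 for F44G4.1, and of these C16A3.6 passed the test (adjusted p = 0.019 in edgeR).

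For 4 of the tested members the annotation of WBcel235 places the end of another protein-coding gene over their exons. cysl-2 shares 3.21% of its exonic bases with vnut-1, rhy-1 shares 4.92% with W07A12.8 and cysl-3 shares 6.86% with rips-1, each on the other strand, and nhr-57 shares 1.03% with lgc-1 on the same strand. The labels name no strand setting, and reads in these stretches cannot be assigned to one gene. The partners of cysl-2 and rhy-1 had lower means after RNAi, and neither was called. vnut-1 stood at 29.9 ± 6.65 CPM after RNAi and 36.7 ± 1.73 CPM in the controls (SD, n = 3 each; adjusted p = 0.40 in edgeR). W07A12.8 stood at 3.14 ± 0.31 CPM after RNAi and 4.58 ± 0.21 CPM in the controls, with an adjusted p of 0.12 in edgeR. lgc-1 was at 2.30 ± 0.28 CPM after RNAi and 3.30 ± 0.37 CPM in the controls (adjusted p = 0.18 in edgeR), and rips-1 was at 23.7 ± 2.26 CPM after RNAi and 22.2 ± 2.90 CPM in the controls (adjusted p = 0.80 in edgeR). The exons of sqrd-1 overlap piRNA genes, and those of F22B5.4 and cysl-1 overlap no annotated gene.

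Around the members, no tested gene from the core of the HIF-1 pathway was called. With only 7 such genes tested, this absence is a description and says little about the pathway. For comparison, edgeR called 8.98% of all tested genes, and 23.3% of them were below 0.05 before adjustment. Of 9 listed genes, hif-1 was at 0 and daf-21 was not found under that name, and 0 of the other 7 were called in edgeR, DESeq2 or limma-voom or had an unadjusted p under 0.05 in edgeR. vhl-1, which encodes the von Hippel-Lindau protein, stood at 27.9, 25.1 and 30.3 CPM after RNAi, against 27.9, 26.7 and 29.1 CPM in the controls. Its log2 fold change was -0.01 with an interval from -0.36 to 0.34. aha-1, which encodes the partner with which HIF-1 binds DNA, stood at 45.6, 61.7 and 48.0 CPM after RNAi, against 45.0, 37.4 and 38.4 CPM in the controls. All its RNAi values lay above the controls, with a log2 fold change of 0.36 (interval -0.02 to 0.74, adjusted p = 0.24 in edgeR). The ubiquitin ligase subunits elb-1, elc-1, cul-2 and rbx-1, through which VHL-1 works, and swan-1, a binding partner of EGL-9, ran from -0.31 to 0.17 on the log2 fold change scale. Over the 7 tested genes the median was -0.15, against 0.02 for all genes. Of these 7, cul-2 has 3 RefSeq transcripts and held only 44 to 105 counts in a library, while the others have 1 transcript each.

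Genes outside the members that have been linked to HIF-1 had 3 calls. Of 8 tested, 2 rose and 1 fell, against 8.98% of all tested genes called in either direction, and their median log2 fold change was 0.36. The calls of fmo-2 and gst-19 were known before the list was made, so its count and median cannot be read against all genes. fmo-2, a flavin-containing monooxygenase gene that HIF-1 and NHR-49 can induce, rose. It held 106, 144 and 176 CPM after RNAi, against 63.9, 58.9 and 59.7 CPM in the controls (log2 1.22, adjusted p = 0.0051 in edgeR). cyp-36A1, a cytochrome P450 gene that acts downstream of EGL-9 and HIF-1, rose as well. It stood at 12.5, 17.3 and 14.3 CPM after RNAi, against 8.41, 9.42 and 7.74 CPM in the controls, with a log2 fold change of 0.79 and an adjusted p of 0.038 in edgeR. This call was lost in 6 of 16 alternatives, each omission of a control among them, and the adjusted p reached 0.17.

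gst-19, a glutathione S-transferase gene, fell furthest in that list. It stood at 5.57, 6.60 and 5.20 CPM after RNAi, against 27.3, 22.2 and 26.5 CPM in the controls, and its log2 fold change was -2.13 (adjusted p = 0.00072 in edgeR). The ferritin gene ftn-1, which HIF-1 holds down, and smf-3, an iron and manganese transporter gene, had log2 fold changes of 0.46 and 0.63 with adjusted p of 0.18 and 0.14 in edgeR. phy-2, a collagen prolyl 4-hydroxylase gene that HIF-1 induces under hypoxia, was at 28.6, 43.4 and 31.4 CPM after RNAi, against 41.2, 42.1 and 39.0 CPM in the controls. Its groups overlapped (log2 -0.24, adjusted p = 0.48 in edgeR). The results for gst-19 and fmo-2 were known when the list was drawn up.

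**Figure D3:**
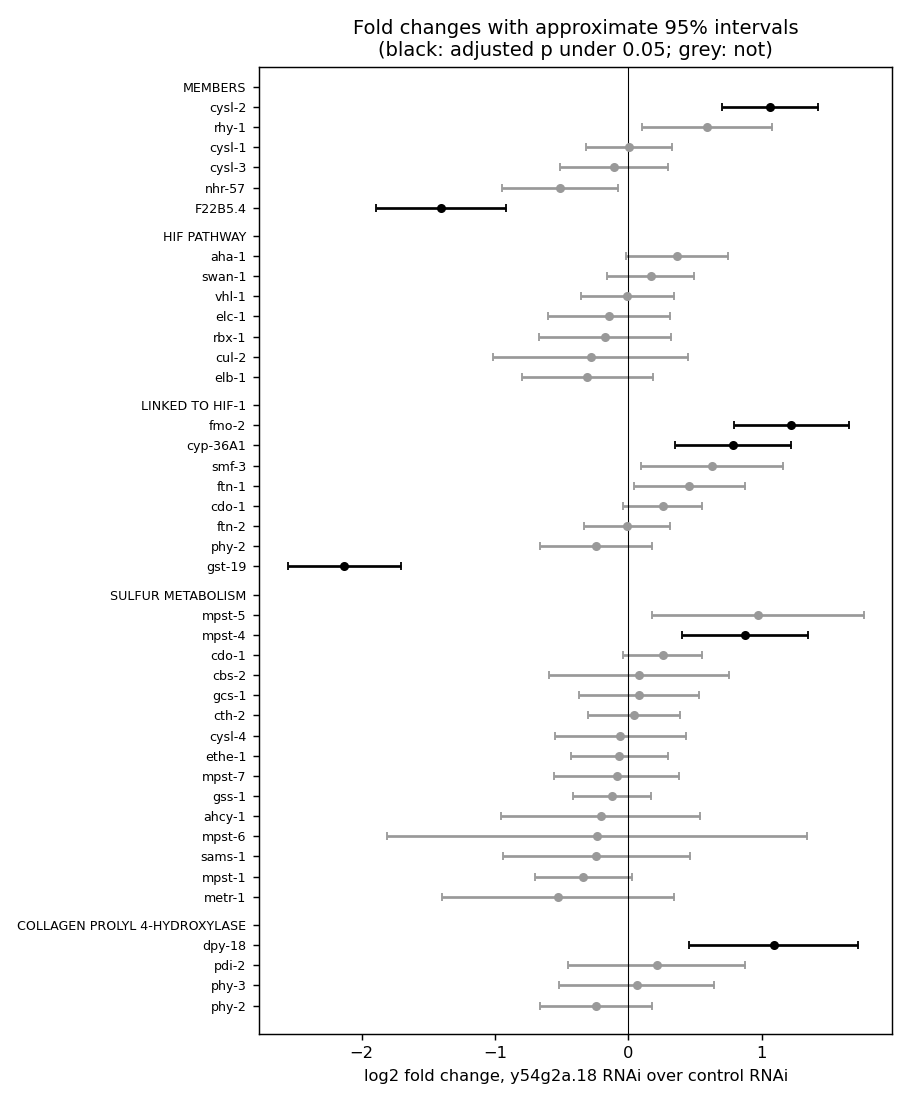
Log2 fold change of each tested member and of the tested genes of the 4 surrounding lists (horizontal axis, y54g2a.18 RNAi over control RNAi), with approximate 95% intervals from the edgeR fit; black marks an adjusted p under 0.05. The called genes are cysl-2, fmo-2, cyp-36A1, mpst-4 and dpy-18 to the right and F22B5.4 and gst-19 to the left.

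Genes of sulfur amino acid and sulfide metabolism gave a single call. Of 22 listed genes 15 were tested, and 1 rose and 0 fell in each of edgeR, DESeq2 and limma-voom. The unadjusted p in edgeR was under 0.05 for 2 of the 15. Over all tested genes edgeR called 8.98%, and 23.3% had an unadjusted p under 0.05. The list leaves out the members, cysl-2 among them, and was made with earlier results of these data known. Its counts are therefore a description. cbs-1, suox-1, semo-1 and mpst-3, each with at least 2 RefSeq transcripts, were listed at 0. The gene that rose was mpst-4, of the mercaptopyruvate sulfurtransferase family, whose enzymes can yield sulfide from cysteine. It stood at 9.59, 8.01 and 6.41 CPM after RNAi, against 4.62, 4.46 and 4.02 CPM in the controls. All RNAi libraries lay above the controls, with a log2 fold change of 0.87 and an adjusted p of 0.034 in edgeR, and the call was lost in 5 of 16 alternatives, with adjusted p up to 0.15. cdo-1, the cysteine dioxygenase gene, which HIF-1 induces, stood at 93.6 ± 5.97 CPM after RNAi and 78.4 ± 6.29 CPM in the controls (SD, n = 3 each). Its adjusted p was 0.28 in edgeR. Over the tested genes of the list the median log2 fold change was -0.07.

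Collagen prolyl 4-hydroxylases belong to the same enzyme superfamily as EGL-9 but act on collagen in the endoplasmic reticulum. Of 4 tested subunit genes 1 rose and 0 fell in edgeR and DESeq2, 1 had an unadjusted p under 0.05 in edgeR, and limma-voom called 0. Over all tested genes edgeR called 8.98%, and 23.3% had an unadjusted p under 0.05. With only 4 genes tested, the count is a description. Their median log2 fold change was 0.14, and phy-4 was listed at 0. dpy-18, which encodes a catalytic subunit, rose to 88.1, 208 and 130 CPM after RNAi, against 70.2, 62.8 and 67.9 CPM in the controls. RNAi replicate 2 was far above replicates 1 and 3, and the log2 fold change of 1.09 was 0.71 without it (adjusted p = 0.059 in edgeR). The adjusted p with all libraries was 0.047, and the call was lost in 7 of 16 alternatives, with adjusted p up to 0.17. pdi-2, the partner subunit, was at 663, 1606 and 929 CPM after RNAi and 934, 880 and 950 CPM in the controls, again highest in RNAi replicate 2.

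Tissue markers were compared because whole worms were sequenced, where fewer cells of a type and less RNA per cell cannot be told apart. As the labels give no age or stage, a difference in stage between the groups cannot be told apart from these either and was not tested. Summed over 8 listed hypodermis markers, levels were 179 to 401 CPM after RNAi, against 991 to 1187 CPM in the controls. Of the 4 that could be tested 3 fell, the cuticle collagen genes rol-6, dpy-7 and dpy-10. The other, nhr-25, a nuclear hormone receptor gene of the hypodermis, had a log2 fold change of 1.10 (adjusted p = 0.47 in edgeR). Its counts were near the floor, at 5, 19 and 13 after RNAi and 14, 1 and 3 in the controls. col-19 and bli-1, with 1 RefSeq transcript each, were at 0, as was lin-26, which has 4. rol-6 alone averaged 178 ± 74.5 CPM after RNAi and 776 ± 67.2 CPM in the controls (SD, n = 3 each), so that the sum is mostly one of cuticle collagen genes. Intestine markers summed to 622 to 1015 CPM after RNAi and 578 to 590 CPM in the controls, with 0 of 7 tested called in edgeR and ifb-2 at 0. Most of this sum was act-5 alone, at 414, 709 and 404 CPM after RNAi and 359, 343 and 372 CPM in the controls. Body wall muscle markers summed to 2003 to 2584 CPM after RNAi and 1681 to 1771 CPM in the controls, with 0 of 6 called and hlh-1 and lev-11 at 0. The largest part was unc-27, at 1269, 1098 and 1028 CPM after RNAi and 876, 796 and 962 CPM in the controls. Neuron markers summed to 746 to 1129 CPM after RNAi and 699 to 731 CPM in the controls, with 0 of 5 called and unc-31 at 0. Here snb-1 made up most of the sum, at 548, 610 and 434 CPM after RNAi and 476, 422 and 493 CPM in the controls. Germline markers summed to 342 to 520 CPM after RNAi and 484 to 664 CPM in the controls, with 0 of 6 called and pgl-3 and him-3 at 0. The markers at 0 in the intestine, muscle, neuron and germline lists have 2 to 19 RefSeq transcripts each. DESeq2 and limma-voom also called 0 genes of these last 4 lists. At an unadjusted p under 0.05 in edgeR the intestine list had 2 genes, the muscle list 1, the neuron list 0 and the germline list 1. Over all tested genes edgeR called 8.98%, and 23.3% had an unadjusted p under 0.05. The 2 intestine genes went opposite ways, elt-7 with a log2 fold change of -0.51 and ges-1 with 0.31. elt-7 has 2 RefSeq transcripts, as do some tested markers of the other lists, and ges-1 has 1. Among protein-coding genes 39.1% of those with 2 transcripts were at 0, against 6.91% of those with 1. The part of the marker shifts in the values of the members was not tested.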

How the data were processed

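The values are raw read counts for each gene as deposited by the authors, with 1 column for a library. Per the submitters' processing notes, the tools were featureCounts 1.28.1, HISAT2 2.2.1, DESeq2 1.16.1 and FastQC 0.11.9, in no stated role. No label or header names a genome build, annotation or strand setting. Groups and replicate numbers came from sample titles, and columns were matched by library name. 12 rows named by dates (at most 0.0247% of a library's counts) were left out of 46903. Of counts from 1 to 20, 71.5% were even, as when both mates of a pair are counted. If so, the 3 counts taken as a floor and the minimum count of 10 stand for fewer read pairs, which was not tested.

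The 6 libraries were fitted in R 4.3.3 with edgeR 4.0.16 (filterByExpr, minimum count 10 and minimum total 15; TMM scaling; quasi-likelihood test; group as the only term), and p-values were Benjamini-Hochberg adjusted over all 14290 tested genes. Genes were called at an adjusted p of 0.05. Fold changes are y54g2a.18 RNAi over control. Standard errors are the log2 fold change over the root of F, so intervals are approximate. Log2 CPM (with 0.5 added) correlated at 0.971 to 0.979 between RNAi libraries and 0.990 to 0.994 between controls. Alternatives were other scalings and filters, DESeq2 1.42.0, limma-voom (limma 3.58.1), a replicate block, the ribosomal RNA share as covariate and leaving out each library; keeping genes with 1 RefSeq transcript was added after seeing the data.

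On counts simulated for this comparison over 14290 genes, 4, 34, 76 and 98% of 50 genes changed 1.5-, 2-, 4- and 8-fold were recovered, and 3 of 109 calls were false. The real comparison had 1283 calls. With fewer calls the adjusted threshold was stricter in the simulation, so these shares do not give the power of the real comparison. Members, lists and markers were chosen with earlier results of these data known. Named genes were all members, the target, hif-1, vhl-1, aha-1, called list genes (at most 5 a list) and the 3 genes most like cysl-2; other genes were picked with their values known. The rpoa-49 table was not used: it held 418 counts in all and no member's name.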

Additional observations from a re-analysis of the deposited data

How the results depend on the processing

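cysl-2 stayed called higher and F22B5.4 called lower under all 16 alternatives, with log2 fold changes of 0.98 to 1.17 and -1.60 to -1.20 and adjusted p up to 0.035 and 0.025. rhy-1 was called under none (0.48 to 0.75). nhr-57 was called only without y54g2a.18 RNAi replicate 2; leaving out single libraries gave -0.72 to -0.42. cysl-1 changed sign around 0: -0.0026 with DESeq2 size factors, -0.0016 with DESeq2, -0.0017 with limma-voom, -0.0033 with the replicate block, -0.0021 with only genes of 1 RefSeq transcript, and -0.11 to 0.082 without single libraries. Without single libraries cysl-3 gave -0.28 to 0.0017 and vhl-1 -0.075 to 0.060, and vhl-1 was 0.025 with total counts and 0.027 with upper-quartile factors.

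Over all genes, 1283 calls became 2215 with the ribosomal RNA covariate, 2097 without y54g2a.18 RNAi replicate 1, and 646, 664 and 667 without control replicates 1, 2 and 3. Deviations from the group mean correlated at -0.0064, 0.049 and -0.50 between libraries of replicate numbers 1, 2 and 3. Each group was centred on its own 3 libraries, so these values depend on one another and cannot decide whether the numbers pair libraries. With the replicate block in edgeR, cysl-2 and F22B5.4 had log2 fold changes of 1.06 and -1.44. The calls of cyp-36A1, mpst-4 and dpy-18 were lost there (adjusted p = 0.086, 0.071 and 0.067).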
